A study of Mus musculus with 6 samples.

Results

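The BTB zinc finger and kelch genes are a family defined by the BTB domain, and they were taken here as the rows whose gene symbol starts with Zbtb, Klhl, Kbtbd or Btbd and a digit, or is Bach1, Hic1 or Hic2. The rule found 36 of the 6739 sites in the authors' deposited table, at 33 gene symbols. A total of 18 sites carried a Zbtb symbol, 7 a Klhl symbol, 10 a Kbtbd or Btbd symbol and 1 Bach1, and no site was assigned to Hic1 or Hic2. Of the 33 symbols, 32 were protein-coding genes and Zbtb11os1 was a noncoding antisense gene within Zbtb11, which encodes no BTB protein. The assay was UTX CUT&Tag, in which an antibody against the H3K27 demethylase UTX (encoded by Kdm6a) directs a transposase to cut beside the bound protein. Cells were CD8+ T cells of the progenitor type (Ly108+CXCR6-) sorted from pancreatic lymph node. The control group was 3 WT samples from NOD.NY8.3 mice, NOD mice with a T cell receptor transgene that recognizes an islet protein. The other group was 3 samples from mice of the same NY8.3 background with UTX deleted in T cells (UTXTCD.NY8.3). The labels give neither the Cre driver, nor the age of the mice, nor how many mice made up a sample, so the spread between samples may be technical.

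The table lists only sites that differed between the genotypes, 401 bp wide and with values by group, so each member had already passed the authors' threshold (FDR under 0.05). From these group values the reads of each library were worked out. Libraries are called a, b and c from the deepest to the shallowest of their group and carry no replicate number. Relative depths, scaled to a mean of 1 over the 6 libraries, were 1.28, 0.916 and 0.792 in WT against 1.93, 1.07 and 0.00577 in UTX-deficient cells. UTX-deficient library c was near-empty. Its 0 at any single site carries little information, since 0.242 reads would be expected per site at the WT level. Over all 36 sites together 8.70 reads would be expected at that level, and 0 were found. That 0 is tied to how the sites were selected and is no independent support. A single read in library c counts as 173 normalized reads, beside a WT mean of 41.9 over the members. A site with such a read would seldom have been listed as lower in UTX-deficient cells, and library c held 0 reads at 99.8% of all rows. The deposited group values count library c as 1 of 3, so at the members they rest on UTX-deficient libraries a and b. Sites were assigned to 4 of 5 CD8 T cell markers and 4 of 4 progenitor markers, and to 0 of 12 markers of B, myeloid and natural killer cells. Of all protein-coding genes, 22.1% had a site. Cd4, which was not among these markers, had a site too, with 97, 85 and 48 reads in WT against 0, 2 and 0 in UTX-deficient cells. These counts describe sites and not expression, and they do not establish the cell type.

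The BTB domain lets proteins pair with themselves or with relatives and dock onto partners. In the zinc finger branch (Zbtb, Hic) it is joined to DNA-binding fingers, and these proteins mostly repress genes by recruiting corepressor complexes that hold histone deacetylases. In the kelch branch (Klhl, Kbtbd) it docks onto CUL3, and the kelch propeller holds the protein that the CUL3 ubiquitin ligase will mark. Several zinc finger members are known for setting T cell lineage, such as Zbtb7b (ThPOK), which directs the CD4 fate against the CD8 fate.

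Many of the member sites lay on or near the start of their gene, so the bases just before the start are shown for 6 of them. The 6 stretches below are the 250 bases before the start, 5′ to 3′ on the strand of the gene, from RefSeq on build GRCm38.p6 (the assembly of mm10). They belong to the members with the highest WT signal among the 36 whose site overlaps a tabulated promoter and whose upstream bases lie outside every annotated gene. Capitals mark matches to the GC box (GGGCGG) and the ETS core (CGGAAG), on either strand. The stretches lie at chr4:45012413-45012662 for Zbtb5 (minus strand), chr4:152008641-152008890 for Klhl21, chr16:87698704-87698953 for Bach1, chr1:177442101-177442350 for Zbtb18, chr17:26972929-26973178 for Zbtb9 and chr14:79426261-79426510 for Kbtbd7, the last 5 on the plus strand.
Zbtb5: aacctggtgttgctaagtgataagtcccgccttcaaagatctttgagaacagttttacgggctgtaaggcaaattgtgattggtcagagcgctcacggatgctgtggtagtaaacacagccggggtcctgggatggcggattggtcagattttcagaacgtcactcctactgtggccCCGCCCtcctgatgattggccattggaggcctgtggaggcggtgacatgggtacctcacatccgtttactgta
Klhl21: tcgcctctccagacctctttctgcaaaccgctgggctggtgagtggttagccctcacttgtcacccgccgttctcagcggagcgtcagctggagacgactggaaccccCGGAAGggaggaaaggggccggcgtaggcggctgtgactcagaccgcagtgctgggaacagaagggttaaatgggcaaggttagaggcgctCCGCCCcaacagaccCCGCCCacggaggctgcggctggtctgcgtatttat
Bach1: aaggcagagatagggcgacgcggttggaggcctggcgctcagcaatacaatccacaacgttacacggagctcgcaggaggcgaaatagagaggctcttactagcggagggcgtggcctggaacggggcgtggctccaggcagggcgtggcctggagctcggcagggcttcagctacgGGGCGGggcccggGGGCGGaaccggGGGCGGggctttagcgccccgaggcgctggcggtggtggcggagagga
Zbtb18: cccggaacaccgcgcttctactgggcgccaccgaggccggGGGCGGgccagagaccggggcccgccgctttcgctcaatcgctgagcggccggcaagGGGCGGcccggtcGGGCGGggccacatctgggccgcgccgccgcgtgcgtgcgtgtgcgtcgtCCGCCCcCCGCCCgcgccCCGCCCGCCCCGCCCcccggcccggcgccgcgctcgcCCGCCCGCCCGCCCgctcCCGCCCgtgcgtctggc
Zbtb9: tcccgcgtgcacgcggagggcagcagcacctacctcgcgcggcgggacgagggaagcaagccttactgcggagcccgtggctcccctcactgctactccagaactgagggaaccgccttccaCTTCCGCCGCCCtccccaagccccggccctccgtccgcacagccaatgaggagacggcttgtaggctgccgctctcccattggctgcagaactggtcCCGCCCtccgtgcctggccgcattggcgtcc
Kbtbd7: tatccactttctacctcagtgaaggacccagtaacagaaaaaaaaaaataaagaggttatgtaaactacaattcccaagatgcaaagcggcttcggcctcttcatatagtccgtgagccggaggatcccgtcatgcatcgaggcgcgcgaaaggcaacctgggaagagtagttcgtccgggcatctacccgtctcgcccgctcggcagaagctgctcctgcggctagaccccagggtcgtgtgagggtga
The Zbtb18 stretch held 12 matches to the GC box, some of them overlapping, and Bach1 held 3. Klhl21 and Zbtb9 each held 2 GC boxes and 1 ETS core, Zbtb5 held 1 GC box and Kbtbd7 held neither.

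All 36 sites were higher in WT and none was higher in UTX-deficient cells in the authors' deposited table. In that comparison 99.7% of the rows of the table, and 81.0% of the 8293 sites behind the FDR, were called higher in WT, so the direction of the members is that of the whole table. Counted by gene, 32 of the 132 protein-coding genes of the family in the annotation had a site (24.2%; exact 95% interval 17.2 to 32.5, treating genes as independent), beside 22.1% of all 21900 protein-coding genes. The branches differed in their counts. A site was assigned to 16 of 41 Zbtb genes (39.0%), 7 of 37 Klhl genes (18.9%), 2 of 9 Kbtbd genes (22.2%) and 6 of 13 Btbd genes outside the Btbd35f cluster (46.2%). The 29 Btbd35f copies on chromosome X had none, and neither did the other 5 family genes on that chromosome. For the copies the exact interval allows a share of up to 11.9%, but only if they are independent. That is doubtful, since the tabulated promoters of Btbd35f7, Btbd35f8, Btbd35f22 and Btbd35f28 had the same GC content (53%) and the same ratio of observed to expected CpG (0.063). Without the Btbd35f copies the family share was 31.1%, while the 22.1% of all protein-coding genes was not trimmed of such copies. None of these differences in share was tested.

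**Figure D1:**
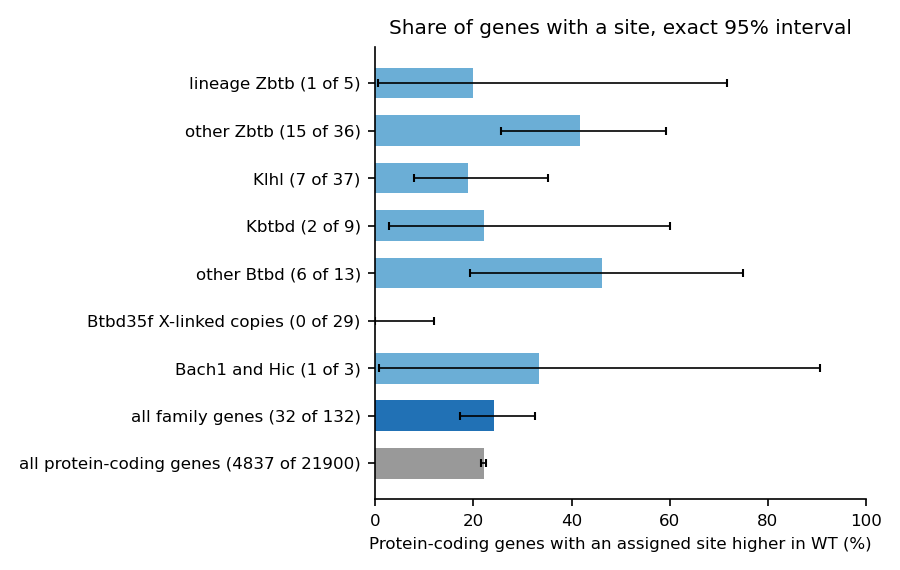
Share of protein-coding genes with an assigned site higher in WT, by branch (bars, in percent; lines are exact 95% intervals, treating genes as independent). The Zbtb genes outside the lineage factors (15 of 36) and the Btbd genes (6 of 13) had the highest shares among branches of over 3 genes, with wide intervals, and the Btbd35f copies had 0 of 29.

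Among the lineage factors, only Zbtb7a had an assigned site. Zbtb7a (LRF) is a repressor that acts beside ThPOK in T cells and represses fetal globin in red cells. Its site lay on chr10:81137239-81137639, inside the gene and 1168 bp downstream of the tabulated start. The reads were 259, 204 and 155 in WT libraries a, b and c and 2, 22 and 0 in the UTX-deficient libraries. In normalized reads this was 203, 223 and 196 in WT against 1.03, 20.5 and 0 in UTX-deficient cells. The groups did not overlap, as at 99.8% of all rows, and the 2 covered UTX-deficient libraries were far apart from each other. The site had the strongest WT signal of the 36, with a deposited WT concentration of 7.69 (log2 mean normalized reads), at the 99.5th percentile of the table. In the authors' deposited table its log2 fold was -3.71 with an FDR of 0.000241, which ranked 26 among the 36 members although its signal ranked 1. Its log2 difference by limma without the near-empty library was -4.97 ± 0.78 (SE; adjusted p = 6.4e-05, Benjamini-Hochberg), and this SE was the largest of the family. The adjustment ran over rows already selected as differing in these libraries, so this p-value is no independent support.

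Zbtb7b, Zbtb16 (PLZF, the factor of innate-like T cells), Zbtb20 and Zbtb32 had no assigned site in the authors' deposited table, but by position Zbtb20 and Zbtb32 each had a site within 1 kb. The annotated gene Zbtb20, a repressor with roles in plasma cells and CD8 memory cells, had its upstream end covered by a site on chr16:42875331-42875731 that the table assigns to the noncoding gene 4932412D23Rik. That site held 220, 186 and 147 reads in WT against 13, 24 and 0 in UTX-deficient cells, with a log2 fold of -3.55 according to the authors' deposited table. It lay 371753 bp upstream of the nearest tabulated Zbtb20 start. The site nearest to Zbtb32, a factor that restrains lymphocyte responses, lay 598 bp past the downstream end of the gene (chr7:30588682-30589082). Its midpoint lay 4060 bp downstream of the nearest tabulated Zbtb32 start, and the site was assigned to Kmt2b, an H3K4 methyltransferase gene. Its reads were 37, 40 and 27 in WT against 0, 1 and 0 in UTX-deficient cells. The site nearest to Zbtb7b was 18037 bp away, at Flad1, and the one nearest to Zbtb16 was 148690 bp away, at Usp28. The table holds differing sites alone, so a site with equal signal in both genotypes would not appear in it.

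The other Zbtb sites formed the largest group, 17 sites at 16 symbols, with a median deposited log2 fold of -3.64. The strongest was at Zbtb5 (chr4:45012314-45012714), with its midpoint 102 bp before the start, so that it covers the whole stretch printed for Zbtb5. It held 140, 101 and 76 reads in WT against 4, 11 and 0 in UTX-deficient cells. Zbtb2, whose product represses the p53 pathway, had a site on chr10:4386788-4387188, 1120 bp inside the gene, with 124, 73 and 57 reads in WT against 4, 7 and 0 in UTX-deficient cells. These were the only Zbtb sites outside the lineage factors with a deposited WT concentration over 6. In the authors' deposited table the log2 folds were -4.08 at Zbtb5 and -4.25 at Zbtb2 (FDR 2.97e-16 and 6.89e-19).

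The remaining Zbtb sites had a WT concentration between 4 and 6. Zbtb18 (RP58), a repressor best known from neurons, had the largest log2 fold of these genes in the authors' deposited table, -4.35, on chr1:177441905-177442305. Its reads were 55, 32 and 25 in WT against 2, 1 and 0 in UTX-deficient cells. Zbtb1, which developing lymphocytes need, had 36, 35 and 24 reads in WT against 1, 2 and 0 in UTX-deficient cells at a site 110 bp before its start (chr12:76370210-76370610). Zbtb25, the neighbour of Zbtb1 on the opposite strand, had a weaker site 6822 bp inside the gene (chr12:76362442-76362842) with 28, 17 and 16 reads against 1, 2 and 0. The Zbtb1 and Zbtb25 sites were 7768 bp apart, and the Zbtb1 site also touched the annotated 5′ boundary of Zbtb25.

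Zbtb9 was the only Zbtb gene with 2 sites assigned to its name. The site 45 bp before its start (chr17:26972934-26973334) held 46, 36 and 24 reads in WT against 2, 4 and 0 in UTX-deficient cells. The other, 5078 bp outside the gene (chr17:26981081-26981481), held 30, 28 and 24 against 2, 1 and 0. Zbtb11, an essential gene with roles in blood development, had a site 140 bp before its start (chr16:55973464-55973864) with 34, 32 and 23 reads in WT against 2, 1 and 0 in UTX-deficient cells. The site named for its antisense gene Zbtb11os1 lay 924 bp away (chr16:55974388-55974788) with 32, 14 and 19 against 1, 2 and 0, so these rows describe 1 locus.

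Zbtb4 and Zbtb38 can bind methylated DNA, and Zbtb48 (TZAP) binds telomere repeats. At Zbtb4 (chr11:69766329-69766729, 617 bp inside the gene) the reads were 31, 22 and 25 in WT against 2, 2 and 0 in UTX-deficient cells. At Zbtb38 the site lay 23029 bp inside the gene (chr9:96696216-96696616), the only member site over 10 kb from a gene end, with 26, 29 and 13 against 4, 1 and 0. At Zbtb48 (chr4:152027630-152028030) the reads were 41, 27 and 20 against 1, 2 and 0. Zbtb24, a gene mutated in an immunodeficiency with lost centromeric DNA methylation, had the weakest WT signal of the family, at percentile 10.3 of the table, with 30, 13 and 12 reads in WT against 0, 1 and 0 in UTX-deficient cells. Its log2 fold was -3.15 according to the authors' deposited table, and with Zbtb38 (-3.01) it was the smallest among the other Zbtb sites.

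The other Zbtb members were Zbtb3, Zbtb12, Zbtb21 and Zbtb44. Zbtb3 had the most even WT libraries in normalized reads, 31.6 ± 1.15 (SD, n = 3), from 40, 28 and 26 reads, and held 3, 4 and 0 in UTX-deficient cells. Zbtb12 had uneven ones, with 28, 24 and 8 reads in WT against 0, 1 and 0 in UTX-deficient cells, which is 19.4 ± 8.34 normalized reads (SD, n = 3). Zbtb21 held 36, 24 and 12 against 1, 1 and 0. Zbtb44 held 33, 22 and 15 against 3, 1 and 0. In each of them the lowest WT library stayed above the highest UTX-deficient library, as at 99.8% of all rows.

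The UTX-deficient signal at the Zbtb sites was mostly at the lowest value the table can hold. A deposited UTX-deficient concentration of 0 was found at 13 of the 18 Zbtb sites. It stands for a mean of at most 1 normalized read over the 3 libraries, near-empty c among them. It was found at 4 of the 18 sites of the other branches and at 37.6% of all rows. At this depth a covered library held at most 4 reads at any Zbtb site other than Zbtb7a in library a, and 11 in library b. The reads behind this contrast were few. In UTX-deficient libraries a and b, the 17 other Zbtb sites held 33 and 44 reads in total, and Zbtb7a held 2 and 22. The 10 Kbtbd and Btbd sites held 20 and 38, the 7 Klhl sites 13 and 25, and Bach1 3 and 7. The difference between the branches was not tested.

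The Klhl sites numbered 7, each at a different gene, and 6 of them lay within 1 kb of a gene end. Klhl21, an adaptor that helps CUL3 act on the Aurora B kinase in mitosis, had the strongest (chr4:152008663-152009063, midpoint 28 bp before the start shown for Klhl21). It held 55, 49 and 42 reads in WT against 0, 5 and 0 in UTX-deficient cells. Klhl24, whose product controls keratin turnover in skin, held 67, 50 and 23 in WT against 0, 5 and 0 in UTX-deficient cells at chr16:20097896-20098296. Klhl18, an adaptor of CUL3 for the Aurora A kinase, held 31, 31 and 27 against 2, 1 and 0, and Klhl28 held 39, 37 and 22 against 2, 3 and 0. The log2 folds in the authors' deposited table were -4.33 at Klhl21, -4.04 at Klhl18, -3.78 at Klhl24 and -3.69 at Klhl28.

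Of the 4 smallest folds of the family, 3 were at Klhl genes (Klhl36, Klhl26 and Klhl42) and 1 at Btbd9. Klhl36 (chr8:119861997-119862397) held 34, 21 and 15 reads in WT against 4, 6 and 0 in UTX-deficient cells, with a log2 fold of -2.26 (FDR 0.00278) according to the authors' deposited table. Klhl26 held 19, 18 and 18 in WT against 2, 3 and 0 in UTX-deficient cells, with a log2 fold of -2.61 (FDR 0.00406) according to the authors' deposited table. Klhl42, an adaptor for the microtubule-severing protein katanin, held 21, 14 and 21 against 3, 2 and 0 at a site 9027 bp inside the gene. The 3 Klhl sites were weak in WT, between percentiles 15.6 and 28.2 of the table, so few reads stand behind each value. By limma without the near-empty library, the Klhl36 log2 difference was -2.39 ± 0.47 (SE; adjusted p = 0.000355, Benjamini-Hochberg), the smallest of the 36, with WT higher in 3 of 3 libraries. This p-value too was adjusted over rows already selected as differing.

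The Btbd and Kbtbd genes had 10 sites at 8 genes, with deposited WT concentrations from 4.41 to 6.79. Btbd2 and Btbd6 had the strongest. The Btbd2 site lay 2151 bp before the start, outside the gene (chr10:80658445-80658845), and held 125, 123 and 79 reads in WT against 6, 8 and 0 in UTX-deficient cells. It had the smallest FDR of the family in the authors' deposited table, 3.85e-20, at a log2 fold of -4.33. Btbd6, an adaptor that in zebrafish promotes the removal of PLZF, the product of Zbtb16, held 108, 104 and 62 reads in WT against 0, 6 and 0 in UTX-deficient cells at chr12:112976127-112976527. Its log2 fold of -4.83 was the largest of the family in the authors' deposited table.

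Btbd10, which promotes AKT activity, was the only member with 0 reads in every UTX-deficient library, against 27, 27 and 20 in WT (chr7:113369152-113369552, 13 bp before the start). With an assumed 3 reads over the UTX-deficient group in place of 0, WT was 25.4-fold higher there. This working floor leaves out variation between libraries, so it is no strict bound. The fitted log2 fold of -4.61 according to the authors' deposited table is not a bound either. Kbtbd11 and Btbd19 had 2 sites each. The Kbtbd11 sites, 8078 bp apart inside the gene on chromosome 8, held 51, 31 and 24 reads in WT against 2, 0 and 0 in UTX-deficient cells (from 15018701), and 56, 36 and 23 against 4, 5 and 0 (from 15026779). Their WT signal was alike, at 34.7 ± 4.85 and 37.4 ± 7.57 normalized reads (SD, n = 3), while the log2 folds in the authors' deposited table were -4.55 and -3.30. The difference between these folds was not tested, and it rests on 2 reads against 9.

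The Btbd19 sites lay 1532 bp apart on either side of the start, 997 bp inside the gene (chr4:117124461-117124861) and 535 bp before it (chr4:117125993-117126393). They held 52, 43 and 38 reads in WT against 2, 7 and 0 in UTX-deficient cells, and 49, 28 and 24 against 4, 2 and 0. Kbtbd7, an adaptor through which CUL3 marks the RAS regulator NF1, had a site 6 bp before its start with 40, 34 and 20 reads in WT against 1, 4 and 0 in UTX-deficient cells. Btbd7, which has a role in epithelial branching, held 24, 26 and 13 against 0, 1 and 0, also 6 bp before its start. Btbd9, a gene linked to restless legs syndrome, held 29, 19 and 20 against 1, 5 and 0 at a site 6178 bp from the gene end, and had the largest FDR of the family in the authors' deposited table (0.00906).

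Bach1 is a haem-sensing repressor that joins a BTB domain to a basic leucine zipper and keeps haem oxygenase and other antioxidant genes low. Its site lay on chr16:87698575-87698975, 179 bp before the start, and covers the whole stretch with 3 GC boxes printed for Bach1. The reads were 50, 42 and 32 in WT against 3, 7 and 0 in UTX-deficient cells. In the authors' deposited table the log2 fold was -3.33 (FDR 2.24e-10). Hic1 and Hic2, both zinc finger repressors, had their nearest sites 3270 and 101050 bp away, assigned to Mir132 and Sdf2l1.

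**Figure D2:**
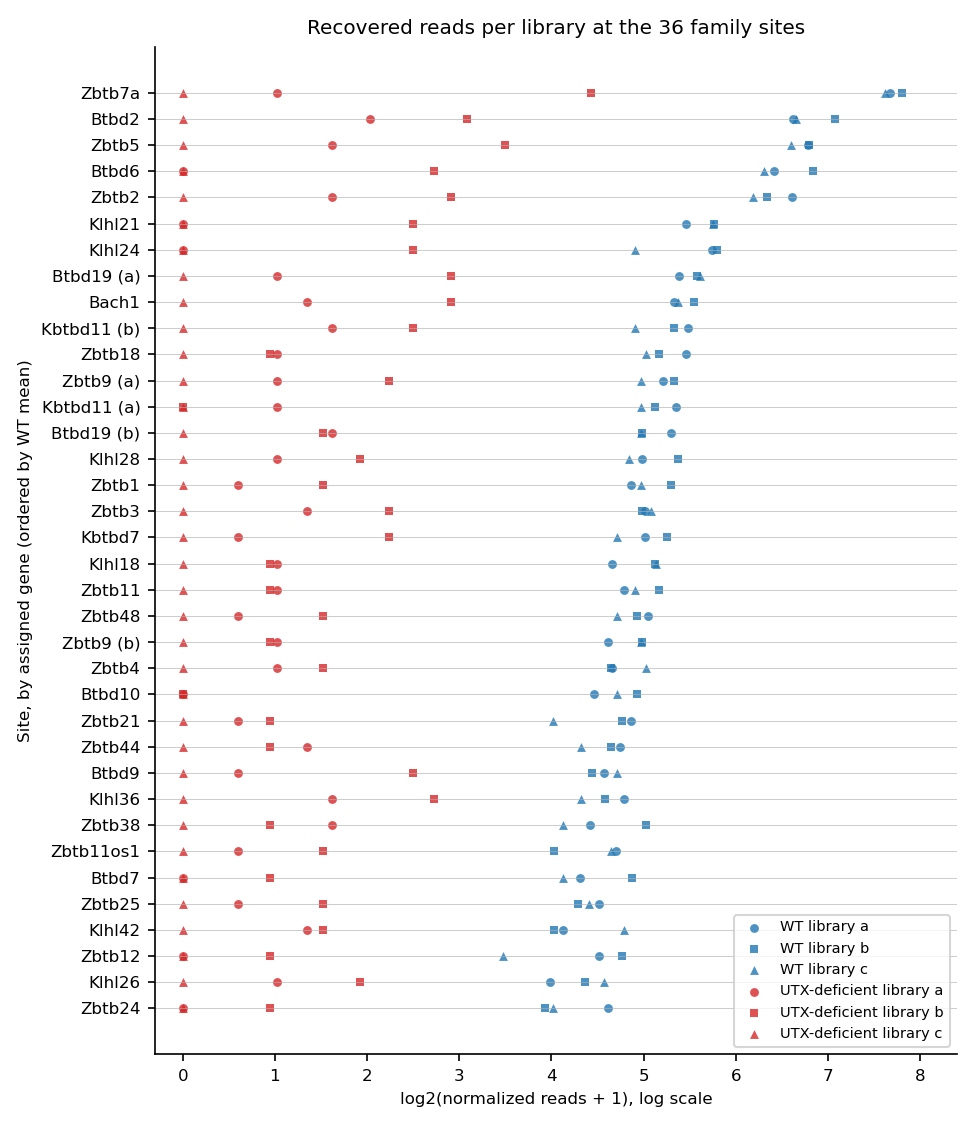
Normalized reads recovered for each library at the 36 sites (horizontal axis, log2 of normalized reads plus 1), 1 row per site; a gene with 2 sites has (a) for the lower coordinate and (b) for the higher. Blue marks are the 3 WT libraries and red marks the 3 UTX-deficient ones. At every site the WT libraries lie to the right of all UTX-deficient libraries, as they do at 99.8% of all rows of the table. Zbtb7a has the highest WT values (196 to 223 normalized reads) with UTX-deficient libraries a and b at 1.03 and 20.5.

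Over the 36 sites together, the mean was 41.9 ± 3.42 normalized reads (SD, n = 3) in WT against 1.51 ± 1.81 (SD, n = 3) in UTX-deficient cells. By library the mean was 41.8, 45.3 and 38.5 in WT against 1.02, 3.52 and 0 in UTX-deficient cells, so the groups did not overlap. The 1.51 counts near-empty library c as a measured 0. At the level of libraries a and b, 0.472 reads would be expected there over the 36 sites. Without library c the UTX-deficient mean was 2.27 (n = 2). WT exceeded the mean of UTX-deficient libraries a and b 18.4-fold, beside 16.7-fold over the other rows of the table. The smallest two-sided p that an exact permutation of 3 against 3 libraries can give is 0.1. Each of the 36 sites had its 3 WT libraries above all UTX-deficient libraries, as did 99.8% of all rows. By limma with Benjamini-Hochberg adjustment over all rows, 36 of 36 sites were lower in UTX-deficient cells with all 6 libraries and again without the near-empty library, against 99.8% of all rows in either fit. All rows had already been selected as differing in the same libraries, so these calls repeat that selection and add no independent support.

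UTX-deficient libraries a and b differed from each other as well. Library b held 136 reads over the 36 sites and library a held 71, although a is the deeper. Normalized signal was higher in b than in a at 27 of the 36 sites (75%) and at 83.9% of all rows. The family took 0.553%, 0.540% and 0.548% of all reads in the table's sites in WT libraries and 0.459% and 0.508% in UTX-deficient libraries a and b. When libraries were scaled to these reads in place of their depth, no member was called by limma (adjusted p under 0.05) with all 6 libraries. Of all 6731 rows, 0 were called lower and 7 higher. An unadjusted limma p under 0.05 was found at 5 members and at 538 of all 6731 rows. Without the near-empty library Btbd10 was the only member called (log2 difference -3.83, limma adjusted p = 0.00567), beside 101 of 6731 rows called lower and 9 higher. On that scale 22 of the 36 sites had a negative difference, with a median of -0.21 beside -0.15 for all rows. The lower signal of the members is therefore measured relative to library depth and not relative to the other sites.

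**Figure D3:**
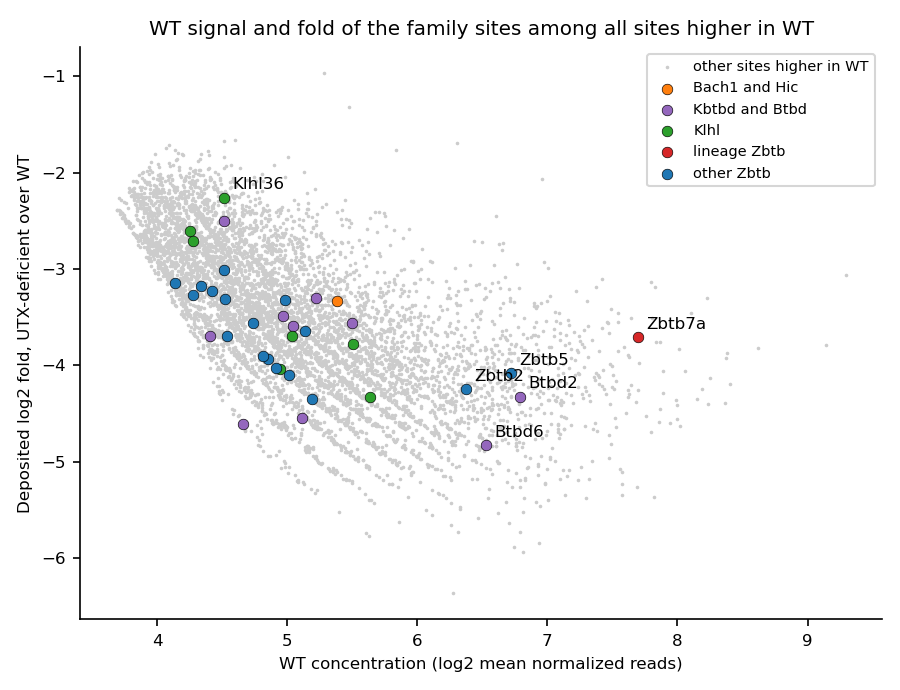
Deposited WT concentration (horizontal axis, log2 mean normalized reads) and deposited log2 fold of UTX-deficient cells over WT (vertical axis). Grey points are all other sites higher in WT and coloured points are the 36 family sites by branch. The family lies within the grey cloud, with a median fold of -3.67 beside -3.50 for all rows, and 5 members (Zbtb7a, Btbd2, Zbtb5, Btbd6 and Zbtb2) have a WT concentration over 6.

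In strength the family was ordinary and in position it was close to genes. The median WT concentration was 4.95 over the 36 sites and 4.94 over all rows, and the median log2 fold was -3.67 beside -3.50 according to the authors' deposited table. Of the 36 sites, 32 overlapped the assigned gene (88.9%, beside 76.2% of the placed rows of the table) and 35 lay within 10 kb of one of its ends (97.2%, beside 73.8%). Within 1 kb of an end lay 23 sites (63.9%, beside 53.0%), with a median distance of 336 bp beside 658 bp. A tabulated start of the assigned gene was at hand for 30 sites. For 17 of them the start fell within 200 bp of the midpoint, that is inside the site (56.7%, beside 45.7% of 5395 rows), and for 24 it fell within 1 kb (80.0%, beside 60.9%). Of these 24 midpoints, 5 lay on the transcribed side of the start. These shares are descriptions, with no test.

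**Figure D4:**
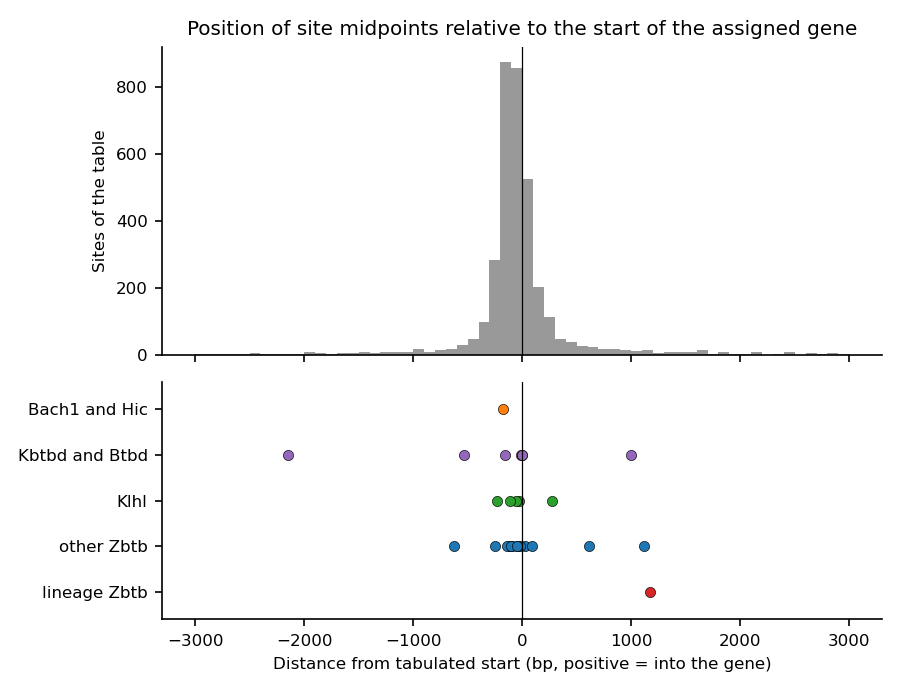
Distance of site midpoints from the nearest tabulated start of the assigned gene (horizontal axis in bp, positive into the gene), within 3000 bp. The upper panel counts all sites of the table in bins of 100 bp, and the lower panel shows the 27 family sites in this window by branch. Most family midpoints lie just before the start, while Zbtb7a (1168 bp) and Zbtb2 (1120 bp) lie inside the gene.

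The gene names in the table do not cover every family gene that has a site beside it. A total of 8 protein-coding genes matched by the rule's patterns had no site of their own name but had one on them or within 1 kb, and the count by position was 39 of 132 genes (29.5%, beside 25.0% of all protein-coding genes). The count by position leaves out Btbd2, whose assigned site lies farther from the gene. Besides Zbtb20 and Zbtb32 these were Zbtb37, Zbtb49, Kbtbd3, Zbtb22, Zbtb46 and Zbtb8os, the last of which is no BTB gene. They were picked out after the values were seen. The Kbtbd3 start lay in a site assigned to Aasdhppt, whose start on the opposite strand is 249 bp away, with 143, 101 and 63 reads in WT against 5, 13 and 0 in UTX-deficient cells. The Zbtb37 start lay beside that of the noncoding gene Gas5, 317 bp apart, at a site with 94, 59 and 55 reads in WT against 3, 7 and 0 in UTX-deficient cells. Zbtb49 shared its site with Lyar, whose start is 28 bp away, with 14, 19 and 9 against 2, 1 and 0. Zbtb22 had 2 sites, both assigned to Tapbp, the gene of the tapasin chaperone, with 50, 34 and 30 reads against 1, 2 and 0 at its start and 30, 37 and 25 against 1, 1 and 0 at 3330 bp inside the gene. At such shared starts the signal cannot be given to either gene.

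Promoter windows of the family were compared by their sequence, each running from 250 bases before to 50 after a tabulated start. A site overlapped 27 windows of 23 family symbols, under any assigned name, and 103 windows had none. The median GC content was 66.0% in the windows with a site and 58.7% in those without, and the ratio of observed to expected CpG was 0.833 and 0.613. Over all 32851 windows of the table of promoters, those with a site had 64.0% GC and a CpG ratio of 0.832, so the family windows with a site were like other windows with a site in this respect. The GC box, the site of SP and KLF factors, was found in 24 of the 27 family windows (88.9%), in 54.4% of the family windows without a site and in 35.7% of all windows. The ETS core was found in 13 of 27 (48.1%), 25.2% and 16.9%, and the E-box (CACGTG) in 6 of 27 (22.2%), 5.83% and 7.15%. Among all windows with a site, of any gene, the shares were 78.2% for the GC box, 36.6% for the ETS core and 11.5% for the E-box. The CCAAT box (CCAAT) was in 12 of 27 family windows with a site (44.4%) in 46.1% of all windows with a site and in 37.4% of all windows. The CRE (TGACGTCA), the RUNX motif (TGTGGTT) and the AP-1 motif (TGANTCA) were each in 2 of 27 (7.41%), beside 4.09%, 3.16% and 3.52% of all windows with a site and 1.79%, 5.27% and 7.81% of all windows. These are letter matches on both strands, windows of 1 gene can overlap, and GC content differed between the compared windows, whose part in these shares was not tested.

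**Figure D5:**
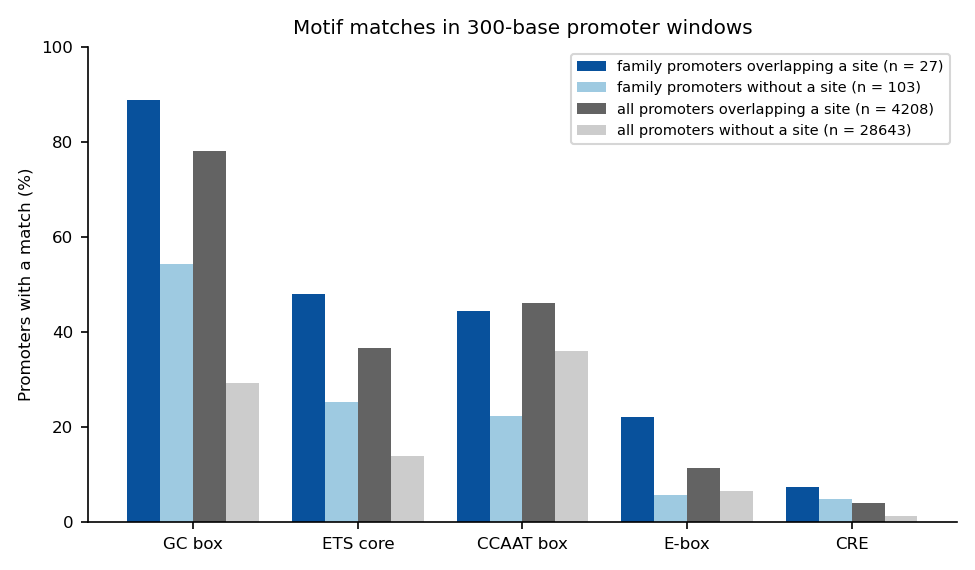
Share of 300-base promoter windows with a match to each motif (vertical axis, percent), for family windows with a site (27) and without (103) and for all windows with a site (4208) and without (28643). The family windows with a site have the GC box in 88.9% and the ETS core in 48.1%, beside 78.2% and 36.6% of all windows with a site.

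Genes that work with this family had sites as well. The lists, given here by how many of their genes had a site, were set beside the 22.1% of all protein-coding genes with a site higher in WT, and every site of the 5 lists was higher in WT. The lists were chosen with earlier results of these data known, and the 22.1% was not limited to genes active in these cells. Of 26 corepressor genes that BTB zinc fingers recruit, 20 had a site (76.9%), with a median log2 fold of -3.58 according to the authors' deposited table. The scaffold gene Sin3a had 2 sites, and the one 255 bp before a start (chr9:57075921-57076321) held 301, 214 and 183 reads in WT against 9, 16 and 0 in UTX-deficient cells. Kdm2b, Rcor1 and Chd4 encode a Polycomb-linked demethylase, a corepressor scaffold and a remodeller. Kdm2b had 2 sites with log2 folds of -4.70 and -2.48, Rcor1 had 2 with -4.80 and -3.66, and Chd4 had 1 with -4.09 according to the authors' deposited table. Of the 24 genes of the CUL3 ligase and its NEDD8 pathway, 11 had a site (45.8%), among them Cul3 itself, whose site 248 bp before the start held 177, 126 and 103 reads in WT against 4, 10 and 0 in UTX-deficient cells. The RING partner gene Rbx1 held 66, 47 and 45 against 2, 4 and 0, the NEDD8 enzyme gene Ube2m 69, 55 and 37 against 0, 6 and 0, and the COP9 subunit gene Cops3 34, 34 and 25 against 0, 1 and 0.

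Of 34 BTB genes that the symbol patterns leave out, 17 had a site (50.0%), with a median log2 fold of -3.22 according to the authors' deposited table. Abtb2, Abtb1 and Mynn had the smallest FDRs of that list, with log2 folds of -5.00, -4.60 and -4.28 at the site of smallest FDR according to the authors' deposited table (a second Abtb2 site had -3.35), followed by Bach2, the relative of Bach1 that restrains effector differentiation. Keap1, the CUL3 adaptor for the antioxidant factor NRF2, held 50, 48 and 22 reads in WT against 1, 1 and 0 in UTX-deficient cells. Of 15 genes of the NRF2 and BACH1 axis, 6 had a site. They were Nfe2l2, which encodes NRF2, the small MAF genes Maff and Mafk, the ferritin genes Fth1 and Ftl1, and Sqstm1. Nfe2l2 held 127, 84 and 63 reads in WT against 3, 5 and 0 in UTX-deficient cells. The classic BACH1 target Hmox1 had no site in the authors' deposited table.

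Of 20 genes around the CD4 versus CD8 choice in which Zbtb7b acts, 17 had a site (85.0%), although Zbtb7b itself had none. Runx3, the CD8 counterpart of Zbtb7b, had 5 sites, the strongest with 172, 137 and 86 reads in WT against 4, 7 and 0 in UTX-deficient cells. Socs1, Bcl11b and Tcf3 followed by FDR, with log2 folds of -4.72, -3.85 and -4.78, each at the gene's site of smallest FDR, according to the authors' deposited table. Patz1 (MAZR), a BTB zinc finger factor that represses Zbtb7b in CD8 cells, is on the list of other BTB genes and held 30, 26 and 11 reads in WT against 1, 2 and 0 in UTX-deficient cells. Expression was not measured here, and the differences between these shares and the background were not tested.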

How the data were processed

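UTX CUT&Tag was measured in 3 WT and 3 UTX-deficient samples, grouped by title. The submitters' processing notes name Bowtie2, MACS2 and DiffBind, with cutadapt, Picard, SAMtools and FastQC, and build mm10. Tool versions are not stated, and any pooling of samples for peak calling is not given in the sources used here. According to the table and per the file headers, the deposited table holds log2 concentrations (log2 of mean normalized reads, lowest value 0), a log2 fold of UTX-deficient over WT, and the authors' p-value and FDR. The FDRs imply 8293 tests, of which 81.0% were called higher in WT. IgG libraries were not used here.

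The authors' fold and FDR are the main result. The deposited group values count near-empty library c as 1 of 3 UTX-deficient libraries. How far it affects the authors' fold and FDR was not tested. A group's antilog concentration times 3 is a sum of whole reads times the worth of 1 read in each library. That worth was found from the table, which gave 1 solution in both groups at 6731 sites, all 36 members among them, and relative depths summing to 6. As a control, sums shifted away from true values had a solution in 2.3% (WT) and 0% (UTX-deficient) of rows. Tested on 10 simulated tables of 6739 sites, a median of 99.5% of WT sums was solved (lowest 80.26%) and 0 wrongly, and a median of 99.97% of UTX-deficient sums (lowest 99.79%), with up to 13 sites solved wrongly in 3 of the tables. A few UTX-deficient reads may therefore be wrong. Recovered reads cover counting error only and are not independent molecules. The recovered reads were tested by limma 3.58.1 in R 4.3.3 on log2(normalized reads + 1), without a replicate block. Adjustment ran over the 6731 recovered sites alone, which the authors had already selected as differing in the same libraries. The limma p-values are therefore no independent test of the members. On 6731 simulated sites with a 16-fold decrease, limma called 99.16% of changed and 20% of 200 unchanged sites with all 6 libraries, and 99.88% and 2.5% without the near-empty one, so the limma values printed for single sites on the depth scale come from the latter fit. Counts and medians from fits with all 6 libraries are named as such or given as alternatives, and they carry the higher rate of calls at unchanged sites.

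Genes and promoters came from RefSeq tables of GRCm38.p6, and motifs were searched in Python 3.11.15. Distances run from the site's midpoint, except for the nearest sites of Zbtb7b, Zbtb16, Zbtb32, Hic1 and Hic2. Those are gaps between the edges of site and gene. The promoter table is not complete. Named sites were those of the lineage factors and, per branch, the 5 strongest in WT, the 2 largest and 2 smallest folds and genes with 2 or more sites; the rest are given for completeness. Lists name up to 4 genes by FDR, with others chosen after values were seen. The members and lists were chosen with earlier results of these data known. Alternatives covered FDR, distance, symbols, pseudocount, scaling and leaving out each library. A gene of the corepressor list is not reported here.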

Additional observations from a re-analysis of the deposited data

How the results depend on the processing

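The 36 sites higher in WT became 23 when only sites within 1 kb of a gene end were kept, and 36, 30 and 35 at FDR 0.01, at FDR 0.001 and within 10 kb. The median distance of 336 bp was 147.5 bp over the 30 sites with a tabulated start when measured to that start, an alternative chosen after the data were seen that changes both the reference point and the sites. By limma with all 6 libraries, 36 sites were lower with each pseudocount, and leaving out each library in turn gave 36 each time. Of all 6731 rows, 6715 were lower in each of these fits. Over the fits that left out a library, the median log2 difference of the members ran from -4.45 to -3.74, beside -4.08 with all 6. The median was -2.59 with a pseudocount of 5, by construction, as a larger pseudocount shrinks differences of low values. Scaling by reads summed over the sites gave 0 sites, as it gave 0 of all 6731 rows, and a median of -1.65. The same scaling without the near-empty library, chosen after the data were seen, gave 1 site, beside 101 of all 6731 rows, and a median of -0.21. There 22 of 36 differences stayed negative. Among the 24 sites chosen by the naming rule, 10 turned positive, none of them called by limma, at Klhl36 (1.47), Klhl26 (0.76), Kbtbd11 from 15026779 (0.69), Bach1 (0.55), Btbd9 (0.39), Zbtb38 (0.32), Btbd19 (0.22 and 0.16), Zbtb9 from 26972934 (0.12) and Klhl28 (0.025). That scaling sets the total over all sites equal between libraries, so it removes a decrease shared by all sites. No paired analysis was possible because the deposited columns are group means and the recovered libraries carry no replicate number. Depth limits UTX-deficient library c, where 0.242 reads would be expected per site at the WT level, and 8.70 over the 36 sites together.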
